A study of Homo sapiens with 12 samples.

Results

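The response to knockdown of BMAL1 in VHL-deficient 786O cells was examined across the transcriptome, with the lists of hypoxia, clock and interferon genes set aside. It was drawn from 6 of the 12 libraries of the series, the 3 of 786O shBMAL1 and the 3 of 786O shControl. 786O is an established human clear cell renal cell carcinoma (ccRCC) line without functional VHL, the ubiquitin ligase that targets HIF alpha subunits for degradation. The shBMAL1 cells carried a short hairpin RNA against BMAL1 from a lentiviral vector and were selected with puromycin, and the shControl cells carried a scrambled hairpin in the same way. A single hairpin was sequenced, so effects of that hairpin on other transcripts and effects of BMAL1 cannot be told apart. The remaining 6 libraries came from WT8, which is 786O with VHL re-expressed, under the same pair of hairpins. All 12 libraries were fitted together, so WT8 also entered the gene filter, the scaling and the estimate of spread behind the 786O p-values. Values of WT8 itself are given only where those of 786O are set against them. The replicates are labelled as biological, and p-values measure the spread between these libraries.

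BMAL1 is a transcription factor with a basic helix-loop-helix and PAS domains that binds DNA with a partner, CLOCK in the circadian oscillator. In ccRCC cells without VHL, HIF2α is stable and drives genes of metabolism, growth and blood vessel formation. The pathways described here are largely controlled by other factors, among them ATF4, which switches on amino acid supply, SREBP2, which switches on sterol synthesis, HSF1, which switches on protein chaperones, and the ERK kinase cascade, which induces its own inhibitors.

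Each 786O library held 35827091 to 36477509 assigned counts, with at least 10 counts for 15259 to 15370 genes. BMAL1 itself, listed under its older symbol ARNTL (chr11:13298199-13408813, plus strand, GRCh37), was at 13.5, 10.8 and 12 CPM, counts scaled to library size, in the shControl libraries and at 4.08, 3.68 and 4.05 CPM in the shBMAL1 libraries. The groups did not overlap, which held for 50.9% of all tested genes. The difference was -1.62 on the log2 scale (SE 0.126), a 3.08-fold decrease (adjusted p 5.09e-13). This and all later p-values come from the quasi-likelihood test of edgeR and carry the Benjamini-Hochberg adjustment. A gene was called where its adjusted p was below 0.1. Renal epithelial and clear cell markers summed to 5833 to 6219 CPM in shControl and 6436 to 6578 CPM in shBMAL1. Most of that sum was VIM, at 4263.7 to 4609.3 and 4230.5 to 4332.7 CPM, so the sum says little of the other markers. PAX8, the renal lineage factor, was at 309 to 317 and 347 to 353 CPM, whereas CA9, a common ccRCC marker, reached only 0.629 and 1.41 CPM at most. Endothelial markers summed to less than 1 CPM in every 786O library and EMCN was at 0 in all 6. Leukocyte markers summed to 41.1 to 43.1 and 31.9 to 36.2 CPM, with PTPRC and CD3E at 0 in all 6. Fibroblast markers summed to 4.52 to 4.72 CPM in shControl and 7.66 to 9.16 CPM in shBMAL1. Among them LUM was called higher, at 2.13 to 3.00 CPM in shControl and 6.02 to 7.61 CPM in shBMAL1, and PDGFRB was not called. The libraries are of a cultured line, so the markers were read as a check of that label, and admixture of other cells was not tested. In bulk libraries of a line, a change in every cell and a change in the share of cells that express a gene cannot be told apart.

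In shBMAL1 cells 8234 of the 16838 tested genes passed the threshold (48.9%). Those higher numbered 4131 (24.5%) and those lower 4103 (24.4%). The typical called gene moved by 0.37 (log2, median of the sizes), and the median change over all genes was 0.00. Over 2-fold, 573 genes were higher (3.4% of those tested) and 576 lower (3.42%), and over 4-fold 170 were higher and 116 lower. Among the called genes, 148 had no library above 3 counts in one of the groups, so their fold changes are bounds. The share of genes called rose with expression, from 19.7% to 65.8% between the lowest and the highest of 5 equal bins, while the median size of the called changes fell from 1.6 to 0.24. Because so many genes moved, each list is described below by its counts and median beside these background shares, and no list was tested as a set.

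**Figure D1:**
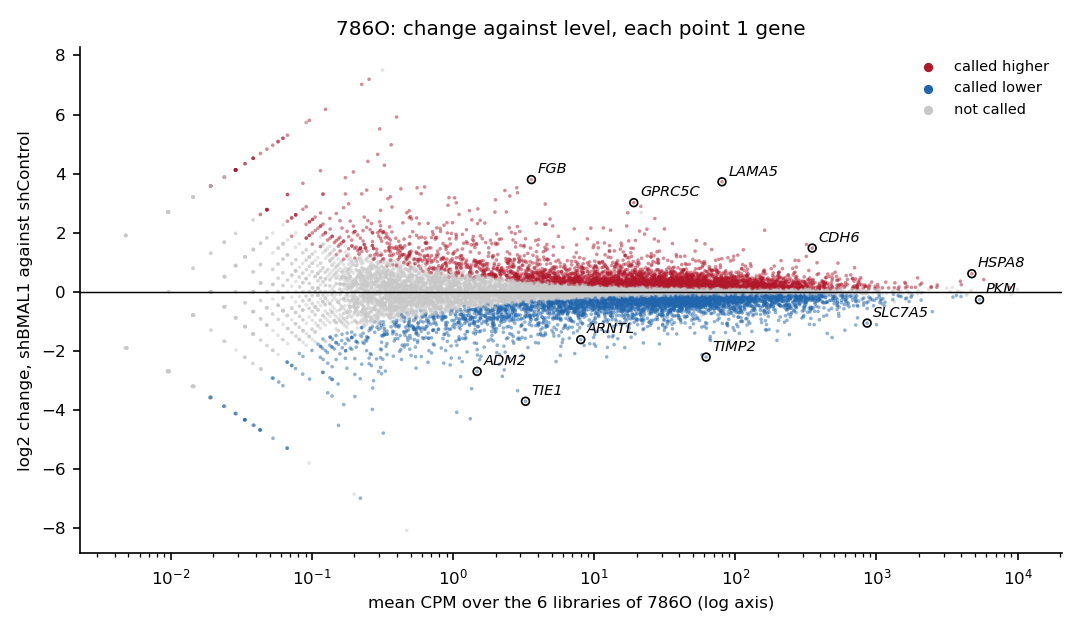
The log2 change in 786O, shBMAL1 against shControl, is plotted against the mean CPM of each gene over the 6 libraries on a log axis, with genes called higher in red, called lower in blue and not called in grey. ARNTL lies at -1.62, LAMA5 at 3.72 and TIE1 at -3.71, and abundant genes such as HSPA8 (0.61) and PKM (-0.27) moved by less than 1.

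Genes of amino acid supply fell. In a list of genes induced through ATF4, the transcription factor of the amino acid response, 23 of 26 tested were lower and 2 higher, with a median log2 change of -0.67. CTH, which makes cysteine from cystathionine, was at 19.7, 19.6 and 21.1 CPM in shControl and at 3.93, 4.43 and 4.71 CPM in shBMAL1. Its groups were far apart, at -2.21 (SE 0.107, adjusted p 1.22e-18). PCK2, a mitochondrial enzyme that links the citric acid cycle to serine and glucose synthesis, went from 158, 151 and 156 CPM to 60.2, 54.3 and 60.6 CPM (-1.41). SLC7A5, the light chain of the main transporter of large neutral amino acids, was among the most abundant genes to fall, from 1172, 1180 and 1131 CPM to 540, 560 and 568 CPM (-1.06, SE 0.042, adjusted p 3.92e-21). SLC3A2, the heavy chain that pairs with it, fell by 0.95 on the log2 scale. SLC7A11, the cystine importer that uses the same heavy chain, went from 34.8, 34.8 and 33.5 CPM to 16.8, 16.8 and 19.1 CPM (-0.97). Enzymes of serine and one-carbon metabolism moved with these transporters, PSPH at -1.20, PSAT1 at -0.81, MTHFD2 at -0.89 and ALDH1L2 at -1.55. The stress regulators DDIT3 and TRIB3 fell by 0.68 and 0.66, ATF4 itself by 0.49, and ADM2, a secreted peptide, by 2.70. ATF3, a stress-induced transcription factor, and SLC7A1, the transporter of cationic amino acids, were the 2 members that rose, by 0.65 and 0.54, and NUPR1 was the member not called.

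The enzymes that charge tRNAs with amino acids, several of which are ATF4 targets, fell as well. Of 20 cytosolic aminoacyl-tRNA synthetases, 15 were lower and 3 higher, with a median of -0.42. CARS, for cysteine, was at 168, 158 and 171 CPM in shControl and at 81.3, 84.8 and 80.6 CPM in shBMAL1 (-1.01, SE 0.045, adjusted p 1.54e-19). WARS, for tryptophan, stood at -0.93, AARS, for alanine, at -0.83, and SARS, for serine, at -0.80. The exceptions were both subunits for phenylalanine, FARSA at 0.15 and FARSB at 0.29, and KARS, for lysine, at 0.29. DARS and RARS were not called.

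Promoter sequences are shown for members of both lists because they hold the letters TGATGNAA, the core of the C/EBP-ATF element through which ATF4 is known to act. The sequences come from RefSeq on GRCh38.p14, a different build from that of the gene positions above, and are given 5′ to 3′ along the gene's strand with the match, on either strand, in capitals. They lie at chr7:97872449-97872496 on the minus strand for ASNS, chr15:40953242-40953289 on the plus strand for CHAC1, and chr16:70289666-70289713 on the minus strand for AARS. IARS lies at chr9:92293698-92293730 on the minus strand, and ATF3 at chr1:212565196-212565243 on the plus strand.
ASNS: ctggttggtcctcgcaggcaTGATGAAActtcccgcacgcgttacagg
CHAC1: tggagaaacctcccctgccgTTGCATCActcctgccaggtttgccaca
AARS: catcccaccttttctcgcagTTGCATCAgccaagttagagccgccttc
IARS: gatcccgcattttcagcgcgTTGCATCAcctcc
ATF3: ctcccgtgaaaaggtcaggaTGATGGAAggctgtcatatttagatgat
ASNS, the enzyme that makes asparagine, fell from 170, 163 and 171 CPM to 110, 103 and 111 CPM (-0.63, SE 0.046, adjusted p 1.10e-13), and CHAC1, which degrades glutathione, fell by 1.05. IARS, for isoleucine, changed by only -0.14, and ATF3 rose, so genes with the same letters moved by different amounts and in both directions. In windows from 250 bases before to 50 after the start, the letters were found in 5 of 21 promoters of the ATF4 list, in 5 of 12 of the synthetases and in 1.77% of the 11551 promoters matched to tested genes. These letters were chosen after the changes were known, and a match is a description, not a site or a cause.

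Genes of sterol synthesis fell together in 786O. Of 24 genes of cholesterol synthesis and uptake, 19 were lower, and 0 were higher by edgeR, by DESeq2 or at an unadjusted p below 0.05; the median was -0.34. FDFT1, squalene synthase, was at 213, 214 and 223 CPM in shControl and at 114, 109 and 106 CPM in shBMAL1 (-0.98, SE 0.043, adjusted p 9.93e-20). LSS, which closes the sterol ring, went from 146, 141 and 138 CPM to 78.9, 75.2 and 78.0 CPM (-0.88), and FDPS, which makes farnesyl diphosphate, from 269, 266 and 268 CPM to 146, 147 and 151 CPM (-0.86). In each of these the groups were well separated. Smaller falls were found for HMGCS1 (-0.39), an early enzyme of the pathway, and INSIG1 (-0.60), the sterol-regulated anchor of SREBP processing. SREBF2, which encodes SREBP2, was not called (521, 478 and 469 against 476, 480 and 492 CPM). NPC1L1, an importer of sterols outside the list, fell from 3.27, 4.17 and 4.35 CPM to 0.546, 0.259 and 0.804 CPM (-2.87). Fatty acid genes also leaned downward, with 13 of 24 lower and 4 higher and a median of -0.32. The desaturases FADS2 and SCD fell by 0.79 and 0.64, the lipid phosphatase LPIN1 by 0.59 and the synthase FASN by 0.37, while the acyl-CoA ligases ACSL4 (0.17) and ACSL1 (0.15) rose slightly.

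The letters TCACNCCA, one form of the sterol regulatory element bound by SREBP2, were found in 3 of 18 promoters of the cholesterol list and in 3.38% of all promoters matched. MVK (chr12:109573579-109573626, plus strand) and MSMO1 (chr4:165327493-165327540, plus strand) are printed as members that fell, and SREBF2 (chr22:41832952-41832999, plus strand) as one that was not called. Build, orientation and capitals are as above.
MVK: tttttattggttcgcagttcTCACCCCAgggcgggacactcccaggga
MSMO1: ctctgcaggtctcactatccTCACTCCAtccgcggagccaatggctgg
SREBF2: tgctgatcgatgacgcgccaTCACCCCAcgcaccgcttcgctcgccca
MVK, mevalonate kinase, was at 45.5, 40.6 and 40.4 CPM in shControl and 29.3, 28.9 and 26.5 CPM in shBMAL1 (-0.58), and MSMO1, a sterol methyl oxidase, at -0.35. This motif too was chosen after the changes were known.

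Protein folding genes moved in both directions. Of 20 heat shock proteins and co-chaperones, which act mainly in the cytosol, 20 were higher, and 0 were lower by edgeR, by DESeq2 or at an unadjusted p below 0.05; the median was 0.38. HSPA8, the constitutive HSP70, was at 3730, 3609 and 3914 CPM in shControl and at 5816, 5663 and 5701 CPM in shBMAL1, which made it the gene with the largest rise in CPM among those called (0.61, SE 0.040, adjusted p 6.24e-15). The inducible HSP70 genes HSPA1A (183, 166 and 166 against 368, 364 and 345 CPM) and HSPA1B (269, 254 and 241 against 519, 497 and 493 CPM) rose by 1.06 and 0.98, but they are near-identical copies and the reads between them are uncertain. CRYAB, a small heat shock protein, was low and rose from 1.11, 0.886 and 0.739 CPM to 4.22, 4.2 and 3.85 CPM (2.16). HSPH1, a nucleotide exchange factor of HSP70, stood at 0.66, the HSP70-HSP90 organiser STIP1 at 0.60, the co-chaperone BAG3 at 0.60 and HSP90AA1 at 0.47. Chaperones and response genes of the endoplasmic reticulum went mostly the other way, with 16 of 27 lower, 5 higher and a median of -0.20. HYOU1, an HSP70 relative of the reticulum, fell from 663, 654 and 635 CPM to 240, 246 and 247 CPM (-1.41, SE 0.043, adjusted p 4.16e-24), HERPUD1, of the degradation machinery, by 0.50, and HSPA5, the main chaperone there, by 0.29. CREB3L2, a membrane-bound transcription factor, and SEC24D, a coat protein of export vesicles, rose by 0.65 and 0.33. Proteasome subunits were lower in 16 of 31 and higher in 2, by small amounts (median -0.09). PSMD2, of the regulatory particle, went from 1249, 1245 and 1263 CPM to 943, 945 and 936 CPM (-0.41).

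Heat shock promoters are shown for the letters GAANNTTC, the inverted repeat at the core of the heat shock element bound by HSF1. These were found in 6 of 17 promoters of the list and in 4.93% of all promoters matched, and they too were chosen after the changes were known. HSPA1A lies at chr6:31815417-31815464 and HSPA1B at chr6:31827613-31827660, both on the plus strand, HSPA8 at chr11:123062159-123062206 and CHORDC1, an HSP90 co-chaperone, at chr11:90223072-90223119, both on the minus strand. The other members with the letters, DNAJA1 and HSPB1, lie at chr9:33025055-33025102 and chr7:76302471-76302518, both on the plus strand.
HSPA1A: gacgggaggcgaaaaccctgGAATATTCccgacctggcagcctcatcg
HSPA1B: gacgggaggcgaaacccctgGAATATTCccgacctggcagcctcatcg
HSPA8: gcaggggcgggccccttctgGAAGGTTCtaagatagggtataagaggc
CHORDC1: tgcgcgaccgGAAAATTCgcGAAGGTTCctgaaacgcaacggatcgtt
DNAJA1: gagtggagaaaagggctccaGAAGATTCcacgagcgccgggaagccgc
HSPB1: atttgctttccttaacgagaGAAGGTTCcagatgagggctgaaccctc
CHORDC1, whose window held 3 matches, went from 56.1, 52.1 and 51 CPM to 82.0, 82.4 and 80.4 CPM (0.62). DNAJA1, an HSP40 co-chaperone, and HSPB1, a small heat shock protein, rose by only 0.22 and 0.18.

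**Figure D2:**
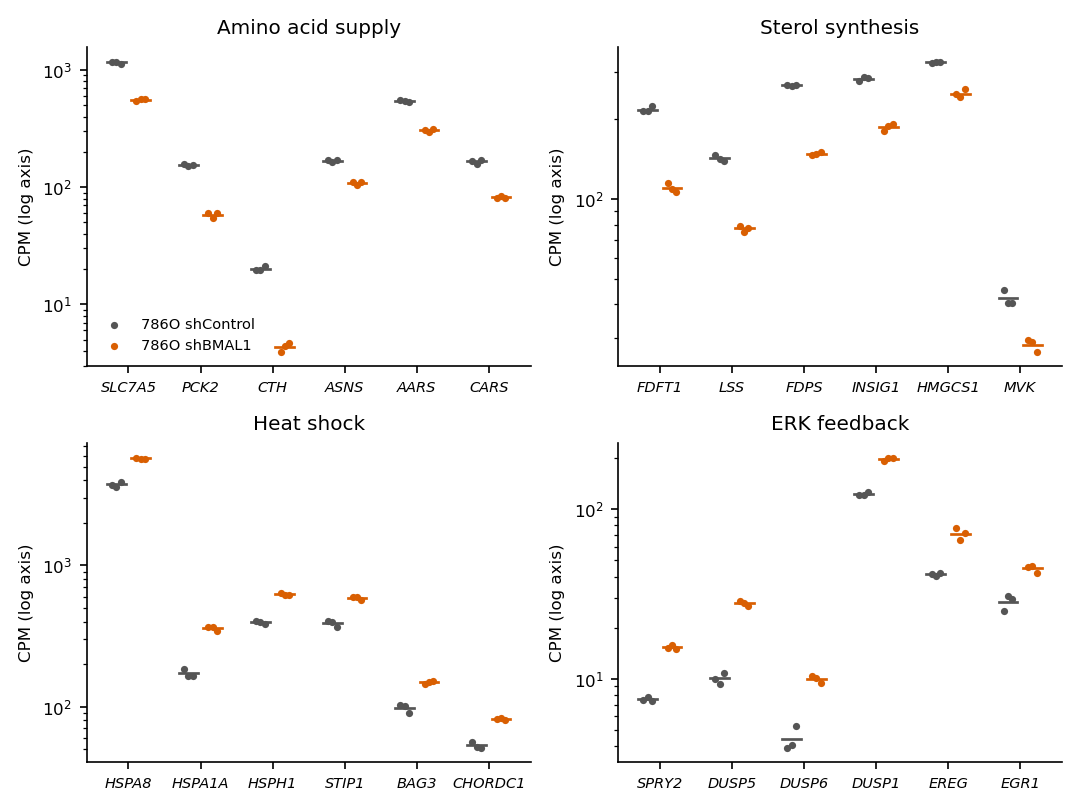
CPM of 6 genes from each of 4 groups is plotted for every 786O library on a log axis, shControl in grey and shBMAL1 in orange, with bars at the group means. In the panels of amino acid supply and sterol synthesis all shBMAL1 points lie below the shControl points, as for CTH and FDFT1, and in the heat shock and ERK feedback panels they lie above, as for HSPA8 and DUSP5.

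For the E-box CACGTG, to which BMAL1 and its relatives bind, and whose last 5 letters form the hypoxia response core ACGTG, shares were compared among called and uncalled genes. The letters were found in 11.2% of promoters of genes called higher, 9.84% of those called lower and 9.39% of those not called. Among genes over 2-fold the share was 6.73% for those higher (21 of 312) and 8.45% for those lower (30 of 355). For ACGTG the shares were 28.9%, 25.1% and 25.7%, and over 2-fold 18.6% and 19.7%. The AP-1 letters TGACTCA, the site of FOS and JUN proteins, were found in 3.89%, 3.08% and 3.12%, and in 29 of 312 promoters of genes higher by over 2-fold (9.29%) against 17 of 355 of genes lower by over 2-fold (4.79%). These are shares of letters in short windows and say nothing of binding.

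Feedback and early response genes of the ERK cascade rose. Of 23 tested, 19 were higher, and 0 were lower by edgeR, by DESeq2 or at an unadjusted p below 0.05; the median was 0.48. DUSP5, a nuclear phosphatase of ERK, was at 9.98, 9.35 and 10.8 CPM in shControl and at 28.5, 28.0 and 26.8 CPM in shBMAL1 (1.47, SE 0.070, adjusted p 7.60e-19). DUSP6, its cytoplasmic counterpart, went from 3.91, 4.09 and 5.29 CPM to 10.4, 10.2 and 9.42 CPM (1.17), and SPRY2, an inhibitor of receptor signalling, from 7.53, 7.75 and 7.42 CPM to 15.2, 15.8 and 15.1 CPM (1.02). The groups did not overlap in any of these 3, as in 50.9% of all tested genes. The immediate early transcription factors FOS and EGR1 stood at 0.88 and 0.66. The EGF receptor ligands EREG and HBEGF, which belong to the same list, rose by 0.79 and 0.56. AREG, a further ligand of that receptor taken from the YAP and TEAD list, went from 8.87, 7.49 and 8.13 CPM to 26.5, 29.9 and 24.3 CPM (1.72), and ligands were not counted as a group. ETV5, FOSB, FOSL2 and IER3 were not called. Receptor tyrosine kinases themselves fell more often than they rose, with 13 of 27 lower, 5 higher and a median of -0.32. That median was -0.16 with a mean of at least 50 counts required and -0.12 in the 6 libraries of 786O alone. EGFR was at 245, 254 and 213 CPM in shControl and 178, 165 and 176 CPM in shBMAL1 (-0.46), and EPHB4, an ephrin receptor, fell by 1.49, whereas the receptors CSF1R (0.80) and FGFR3 (0.59) rose.

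Genes of secreted plasma proteins included the largest rises. Of 27 complement and acute phase genes, 14 were higher and 7 lower. Their median was 0.57, but it was 0.33, 0.35 and 0.37 without shControl replicate 1, 2 or 3 and 0.33 and 0.35 without shBMAL1 replicate 2 or 3. FGB, the beta chain of fibrinogen, rose from 0.379, 0.686 and 0.370 CPM to 6.92, 6.88 and 6.29 CPM (3.80, SE 0.302, adjusted p 4.33e-12), the largest rise under the naming rule. FGG, the gamma chain, had at most 1 count in a shControl library against 28, 22 and 32 in shBMAL1, at least 9.11-fold higher. LBP, which binds bacterial lipopolysaccharide, went from 0.292, 0.515 and 0.540 CPM to 4.97, 5.79 and 4.86 CPM (3.52). SERPINA1, the main plasma inhibitor of elastase, rose by 0.70. C4A and C4B rose by 1.3 and 1.6, but they are near-identical and reads between them are uncertain. C1S, a protease of the classical pathway, fell by 1.37, and C3, the central component, from 75.6, 70.5 and 65.6 CPM to 47.8, 42.3 and 40.9 CPM (-0.69). The acute phase genes SAA1 and SAA2, also close copies, fell by 0.99 and 1.03. Levels of all but SERPINA1 and C3 among the genes named here were below 20 CPM.

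**Figure D3:**
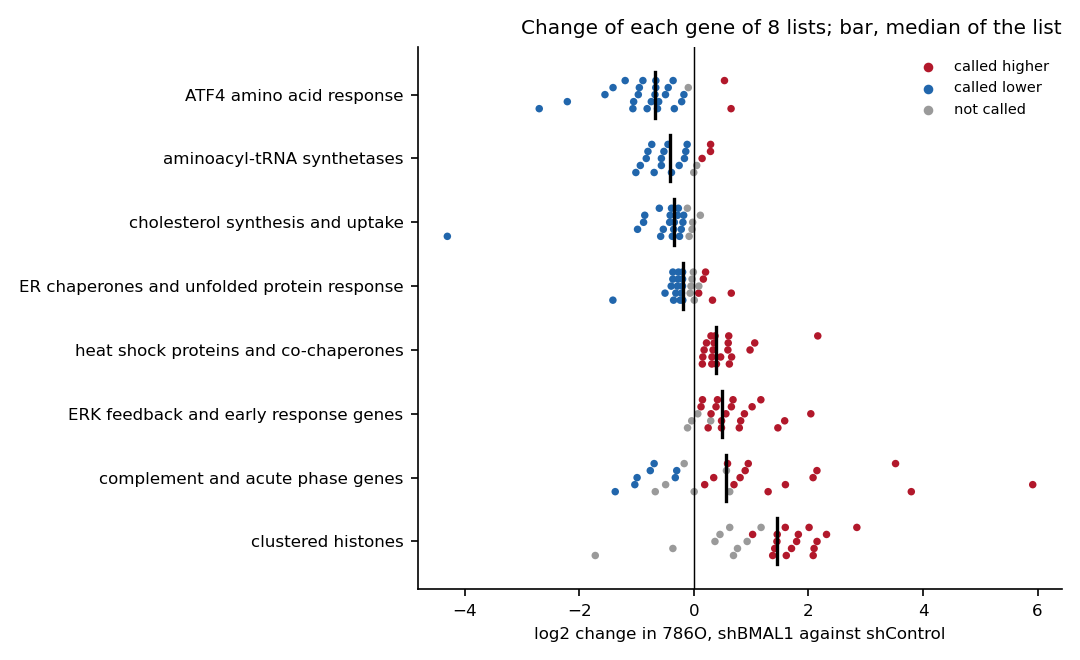
Each point is the log2 change in 786O of 1 gene of 8 lists, red if called higher, blue if called lower and grey if not called, and the black bar is the list's median. All members of the heat shock list lie above 0 (median 0.38), whereas the ATF4 list centres on -0.67 and the cholesterol list on -0.34.

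Genes of the renal lineage and of tubule function rose more often than they fell, with 9 of 19 higher, 3 lower and a median of 0.33. CDH16, the kidney-specific cadherin, was at 9.19, 10.0 and 9.75 CPM in shControl and 20.4, 18.2 and 18.8 CPM in shBMAL1 (0.99), and MME, a peptidase of the proximal tubule brush border, at 12, 11.2 and 11.3 against 22.3, 21.4 and 22.2 CPM (0.94). SLC17A3, a urate transporter, rose by 1.11. The transcription factor PAX2 fell slightly, by 0.31, and PAX8 rose by 0.16. CDH6, a cadherin of renal epithelium, rose from 190, 186 and 179 CPM to 530, 500 and 516 CPM (1.48, SE 0.049, adjusted p 4.24e-23), and the epithelial keratins KRT8 and KRT18 rose by 0.41 and 0.50. UGT2B7 and UGT2A3, enzymes that conjugate drugs and steroids in kidney and liver, were low and rose by 3.11 and 2.97, with reads shared among near copies of that family uncertain. Genes of the primary cilium, the sensory organelle of tubule cells, were lower in 18 of 35 and higher in 5 (median -0.21).

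Some genes named for blood vessel cells were expressed at low levels in 786O and fell, with 10 of 20 lower and 5 higher. The median was -0.61, or -0.40 where genes at the floor took their bounds instead, and it was -0.36 without shControl replicate 1. TIE1, an orphan receptor of endothelium, was at 6.45, 6.23 and 5.49 CPM in shControl and at 0.632, 0.374 and 0.373 CPM in shBMAL1 (-3.71, SE 0.200, adjusted p 2.69e-17), the largest fall under the naming rule. ROBO4, a guidance receptor of vessels, went from 3.44, 4.09 and 3.27 CPM to 0.804, 0.461 and 0.689 CPM (-2.46), and ENG, a co-receptor of TGF-beta, fell by 2.14. NRP1, a co-receptor of VEGF with wide expression, rose from 197, 195 and 188 CPM to 455, 428 and 447 CPM (1.20, SE 0.042, adjusted p 1.90e-22). The defining endothelial markers EMCN, PECAM1 and VWF were at or near 0 in these libraries, with at most 5 counts of PECAM1 or VWF in any.

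Antigen presentation genes fell more often than they rose. Of 21 tested, 13 were lower and 1 higher, with a median of -0.28. CD74, the invariant chain of class II molecules, went from 11.2, 12 and 10.4 CPM to 4.54, 5.24 and 6.00 CPM (-1.09), HLA-F fell by 0.84 and the immunoproteasome subunit PSMB9 fell by 0.74. ULBP1, a ligand of the NKG2D receptor on natural killer cells, went from 8.93, 9.26 and 8.76 CPM to 1.38, 2.56 and 1.29 CPM (-2.36), and the peptide transporter SLC15A3 fell by 2.65. Among cytokines, LTB, which forms lymphotoxin, fell from 6.30, 4.69 and 4.66 CPM to 0.833, 0.403 and 0.287 CPM (-3.35), TNF by 0.96 and IL18 by 0.95. IL11, a cytokine of the IL-6 family, rose from 13.1, 11.6 and 10.5 CPM to 49.5, 55.9 and 48.0 CPM (2.12, SE 0.090, adjusted p 2.65e-20), and the chemokine CCL2 by 0.62. Over the list 7 of 26 cytokines were lower (26.9%) and 6 higher (23.1%), near the 24.4% and 24.5% of all genes tested. CMPK2 and OAS1, which also met the naming rule and are known as interferon-induced, fell by 2.30 and 2.26.

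At the cell surface and in the matrix, changes went both ways within one family. LAMA5, the laminin alpha chain of many epithelial basement membranes, rose from 14.4, 9.92 and 9.67 CPM to 146, 145 and 157 CPM (3.72, SE 0.125, adjusted p 2.43e-09). In WT8 it was far more abundant, at 1322, 1308 and 1385 CPM in shControl and 846, 866 and 750 CPM in shBMAL1 (-0.71). The transcript LAMA5-AS1 overlaps it on the opposite strand and rose as well (2.47), and since the use of strand in counting is not given in the sources used here, reads of the pair cannot be told apart. Among matrix proteases and inhibitors 11 of 32 were higher and 15 lower. The collagenase MMP13 rose from 5.19, 5.46 and 4.55 CPM to 37.2, 37.8 and 38.0 CPM (2.89), with its neighbours MMP1 at 1.52 and MMP7 at 1.40 on chromosome 11. The gelatinase MMP9 fell by 1.49 and PLAU, the urokinase, from 249, 249 and 239 CPM to 100, 101 and 103 CPM (-1.28). TIMP2, an inhibitor of these proteases, was at 110, 102 and 95 CPM in shControl and at 23.0, 23.2 and 19.9 CPM in shBMAL1 (-2.21, SE 0.061, adjusted p 2.96e-25), whereas its relative TIMP1 rose by 0.78. GPRC5C, an orphan receptor, rose from 3.44, 4.78 and 4.35 CPM to 35.0, 32.5 and 34.3 CPM (3.02). Collagens, laminins and matrix proteins were lower in 13 of 35 and higher in 7, with COL6A1 at 0.60 and COL1A1 at -1.15. Integrins were lower in 8 of 22 and higher in 5, with ITGB8 at 1.07 and ITGB5 at -0.60. Of 25 epithelial and mesenchymal genes, 10 rose and 10 fell, with the mesenchymal cadherin CDH11 at 1.74, the repressor SNAI1 at 0.69 and the junction protein JUP at -1.06. BMP2, a secreted growth factor, rose by 1.56 and ID3, a target of BMP signals, by 0.74, in a TGF-beta and BMP list with 17 of 34 higher and 9 lower. In the Wnt and Notch list 17 of 37 were higher and 7 lower, among them WNT5A (0.79) and the Notch target HES1 (1.03).

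In central metabolism the changes were uneven. Of 24 glycolysis genes, 14 were lower and 5 higher, with a median of -0.14. ENO2, the neuronal type of enolase, went from 95.1, 104 and 98.9 CPM to 33, 32.1 and 33.4 CPM (-1.59, SE 0.060, adjusted p 1.09e-21), and PGAM1, the step before it, fell by 0.78. PKM, pyruvate kinase, fell by only 0.27 but from a level of 6023, 5882 and 5714 CPM to 4935, 4772 and 4910 CPM. SLC16A3, the lactate exporter, rose from 380, 352 and 349 CPM to 654, 746 and 718 CPM (0.97), and the hexokinase HK2 by 0.36. In the citric acid cycle 7 of 25 genes were higher (28.0%) and 8 lower (32.0%), beside 24.5% and 24.4% of all genes tested. OGDH, of the 2-oxoglutarate dehydrogenase complex, went from 142, 139 and 129 CPM to 43.8, 43.9 and 41.9 CPM (-1.66), and cytosolic IDH1 fell by 1.13. PC, pyruvate carboxylase, rose by 0.63. Nuclear genes of the respiratory chain were higher in 31 of 76 and lower in 10 with a median of 0.08, although ATP5B, the catalytic subunit of ATP synthase, fell from 926, 1033 and 974 CPM to 443, 445 and 457 CPM (-1.12). Of 13 mitochondrially encoded protein genes, 3 were higher (23.1%, beside 24.5% of all genes tested) and 10 were not called. COX1 and COX3 were among those higher, at 0.24 and 0.36. AKR1B1, aldose reductase, fell from 3103, 3046 and 3023 CPM to 1913, 1931 and 1906 CPM (-0.67).

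Genes of growth and division moved little in 786O. In the DNA replication list 13 of 32 were higher and 6 lower with a median of 0.05 (0.10 without shControl replicate 3), and in the mitosis list 12 of 25 were higher and 4 lower with a median of 0.12. CDK1, the mitotic kinase, was at 142, 134 and 156 CPM in shControl and 187, 205 and 185 CPM in shBMAL1 (0.42), and CDC6, which licenses origins, fell by 0.24. Cytosolic ribosomal proteins were higher in 17 of 78 (21.8%) and lower in 10 (12.8%), both under the 24.5% and 24.4% of all genes. Mitochondrial ribosomal proteins were higher in 34 of 77 and lower in 6 (median 0.07), and ribosome biogenesis genes higher in 16 of 25 and lower in 2 (0.17).

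**Figure D4:**
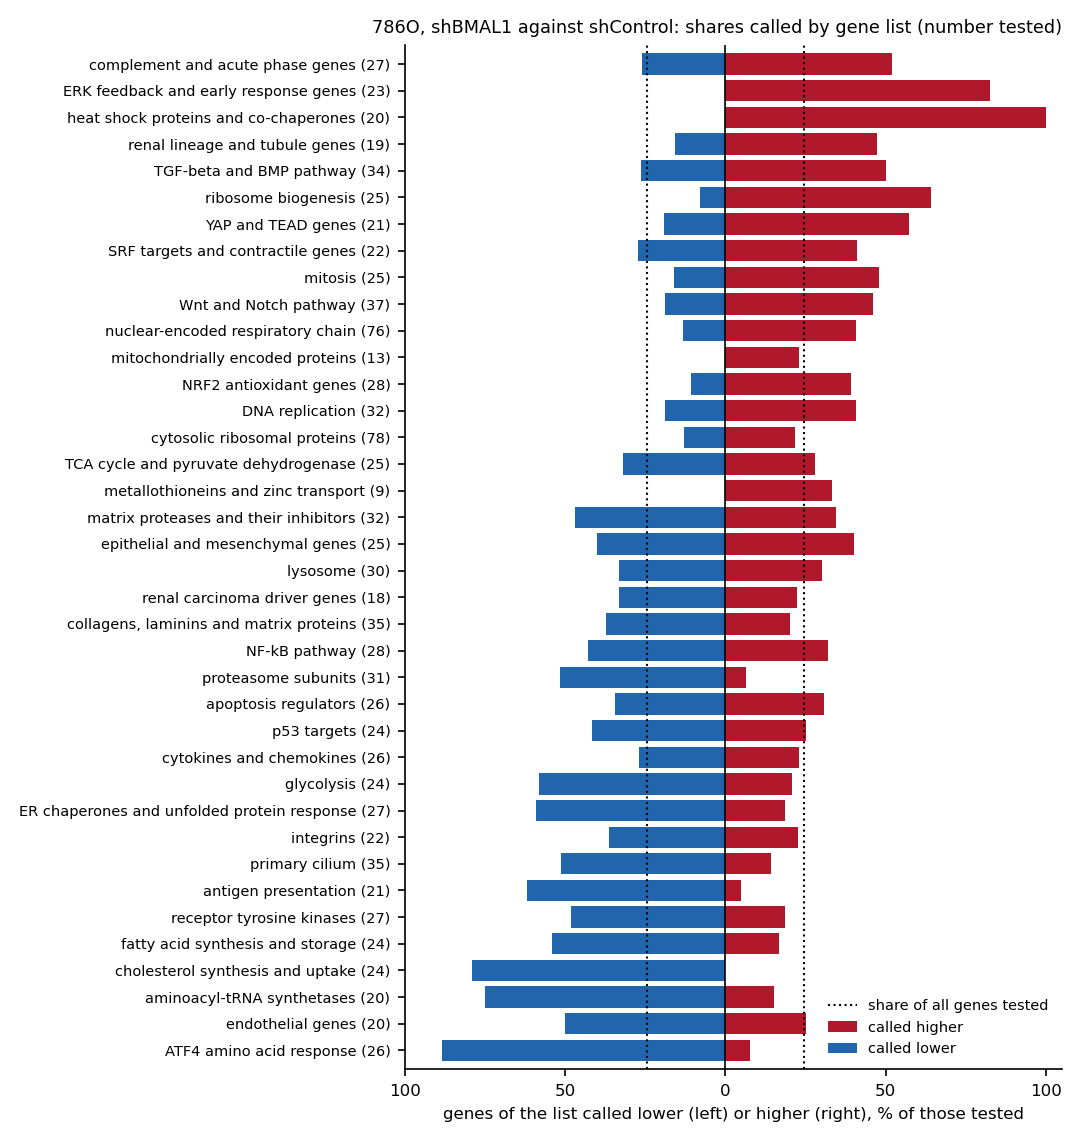
For each of 38 lists, bars give the percentage of tested genes called higher (red, to the right) and lower (blue, to the left) in 786O shBMAL1, with the number tested in parentheses and dotted lines at the shares of all genes tested, 24.5% higher and 24.4% lower. Lists are ordered by median change, from the ATF4 list (-0.67) to the complement and acute phase list (0.57).

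Gene families taken by symbol showed further leanings. Of 437 tested zinc finger genes named ZNF, 177 were higher and 38 lower, with a median of 0.19. On chromosome 19, where many of them sit in clusters, 104 of 215 were higher and 6 lower (median 0.27), against 253 and 189 of 836 other genes there (0.05) and 73 and 31 of 221 ZNF genes elsewhere (0.11). The run of 51 neighbouring genes with the highest median lay at chr19:36378555-38878722 (0.36, GRCh37), with 23 genes higher and 3 lower, against medians of -0.18 to 0.23 for 13355 such runs once the most extreme 1% at either end was left out. ZNF570, a member in that stretch, went from 2.04, 2.14 and 2.19 CPM to 4.94, 4.06 and 4.11 CPM (1.04). Clustered histone genes were higher in 16 of the 25 that could be tested, and 0 were lower by edgeR, by DESeq2 or at an unadjusted p below 0.05. Their median was 1.45, but 0.91 with no filter on low counts and 2.01 with a mean of at least 50 counts required. HIST1H1C, a linker histone, rose from 2.71, 3.57 and 4.12 CPM to 15.1, 15.9 and 15.4 CPM (2.15), and HIST1H2BK from 4.52, 5.49 and 4.92 CPM to 22.2, 21.4 and 19.8 CPM (2.08), at levels low for histones, whose copies are alike so that reads among them are uncertain. Splicing factors of the SRSF and HNRNP families were lower in 18 of 35 and higher in 6 (median -0.17). The rRNA of the mitochondrial large subunit, RNR2, rose from 4946, 5031 and 4858 CPM to 6857, 6889 and 5955 CPM (0.41).

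The changes in 786O were then set against those in WT8, which has its own shControl libraries. The change differed between lines for 9431 genes (56.0%), 5410 of them among the 8234 called in 786O, and 2039 genes were called in both lines in opposite directions. Abundant genes that fell strongly in 786O mostly fell in WT8 too. Of 576 genes lower by over 2-fold in 786O, 380 (66.0%) were also lower in WT8, where 36.9% of all genes tested were lower. Among the 54 of them with at least 50 CPM in the higher group, 51 (94.4%) were lower in WT8, against 35.5% of all 4791 genes at that level. PRMT1, the main arginine methyltransferase, was one of these, at 310, 294 and 293 CPM in 786O shControl and 94.2, 95.6 and 96.4 CPM in shBMAL1 (-1.65 in 786O, -1.54 in WT8). Others were CLTC, the clathrin heavy chain (-1.55 and -0.83), OSTM1, a lysosomal membrane protein (-2.14 and -1.75), and PTPRF, a receptor phosphatase (-1.31 and -1.74). EEF1A1, the elongation factor, also fell in both (-1.12 and -0.86), with reads shared with its many pseudogenes uncertain. QPRT, of NAD synthesis, was an exception, falling in 786O from 360, 355 and 345 CPM to 129, 130 and 129 CPM (-1.45) but not in WT8 (0.15, adjusted p of the difference 2.1e-23). Strong rises are given in the same way. Of 573 genes higher by over 2-fold in 786O 146 (25.5%) were higher in WT8, where 32.9% of all genes were higher, and 196 (34.2%) were lower. Of the 31 with at least 50 CPM in the higher group, 14 (45.2%) were higher and 14 lower in WT8, where 47.5% of all genes at that level were higher.

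Several lists also differed between the lines. The ERK feedback list had a median of 0.48 in 786O and -0.49 in WT8, and the difference was called for 21 of 23 genes, 18 of them more negative in WT8. The cholesterol list stood at -0.34 and 0.37, with 21 of 24 differences called and 20 of these more positive in WT8. Mean log2 CPM of its genes was lowest in WT8 shControl, at 5.86. It was 6.30 in WT8 shBMAL1, 6.63 in 786O shControl and 6.19 in 786O shBMAL1. For the ATF4 list (-0.67 and -0.27) 22 of 26 differences were called, 18 more positive in WT8. SLC3A2 was alike in both lines (-0.95 in each), whereas MTHFD2 fell in 786O (-0.89) and rose in WT8 (0.56). The heat shock list had positive medians in both lines (0.38 and 0.46), but 16 of 20 differences were called, 11 more negative and 5 more positive in WT8. The DNA replication and mitosis lists, nearly level in 786O, stood at 2.25 and 2.13 in WT8, with 31 of 32 and 25 of 25 differences called. Here the WT8 shControl libraries were the low group. Mean log2 CPM of DNA replication genes was 3.91 there, against 6.20 in WT8 shBMAL1, 6.23 in 786O shControl and 6.32 in 786O shBMAL1. For mitosis genes it was 4.99, against 7.14, 7.11 and 7.21. In WT8 shBMAL1 both lists were thus near their 786O levels. Complement and acute phase genes were at 0.57 and -1.69, and renal lineage genes at 0.33 and -0.78.

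**Figure D5:**
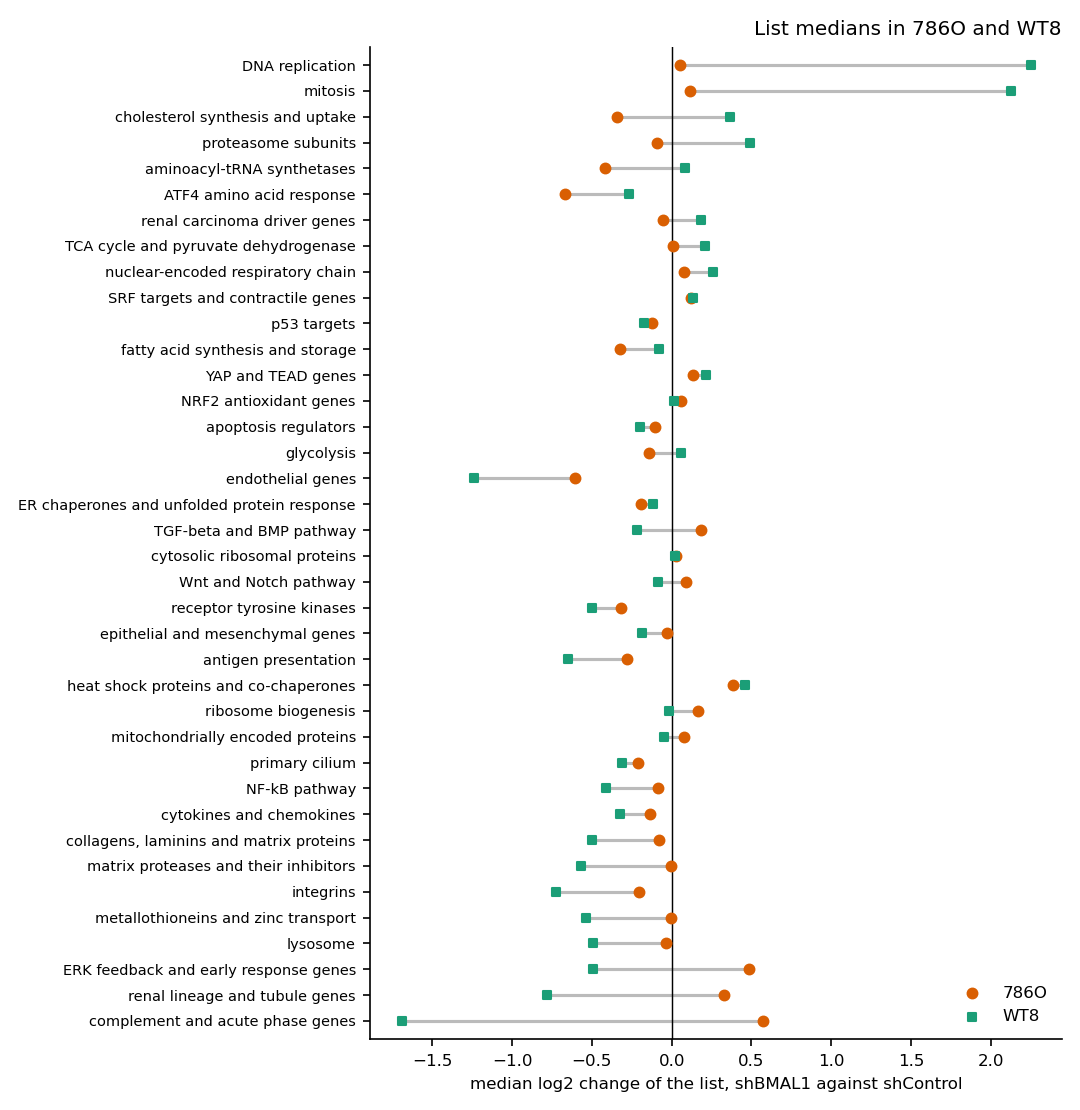
Median log2 change, shBMAL1 against shControl, of each of 38 lists in 786O (orange) and in WT8, joined by grey lines and ordered by the median difference between lines. The heat shock points lie close together at 0.38 and 0.46, while the ERK feedback points lie on opposite sides of 0 and the DNA replication points at 0.05 and 2.25.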

How the data were processed

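RNA from cultured cells was sequenced as 100-base paired reads on a BGISEQ-500. The authors deposited 1 table of reads per gene, linear total reads, which are estimated counts: 5.67% of values other than the stand-in for 0 were not whole. The study's methods name GRCh37 with SeqMan NGen and ArrayStar, whereas the submitters' processing notes name hg38, STAR and DESeq2, and this difference was not resolved. The stand-in 0.028 (47.0% of values) was set to 0, values were rounded, and the 98 lines sharing 45 names were summed, leaving 38021 names. Gene positions came from the GENCODE annotation on GRCh37, matched by current (22506) or older symbol (1135), and promoters from RefSeq on GRCh38.p14.

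Counts of all 12 libraries were fitted with edgeR 4.0.16 in R 4.3.3 (filterByExpr, TMM factors of 0.948 to 1.04, quasi-likelihood test, 1 mean per group, Benjamini-Hochberg adjustment over all 16838 genes, called below 0.1). The study used DESeq2 (here 1.42.0), which was an alternative. Folds and their SE are edgeR's. CPM is scaled to the library total times its TMM factor and uncorrected for gene length, so levels are compared between libraries and not between genes. Replicate libraries differed beyond counting noise (4.50 to 12.6 chi-square per gene), so none was a copy of another. This check cannot tell separate cultures from repeat libraries of the same culture. The script was tested on simulated data in which few genes had a known fold and the groups were otherwise alike. That setting is simpler than these data, where 48.9% of genes were called in 786O.

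Named genes were BMAL1, the 10 largest rises and falls with a mean of at least 50 counts and no overlap of groups, the 6 largest differences in CPM in each direction, and up to 3 rises and falls per list; other genes named illustrate a list and were picked after their values were seen. Members, lists and rules were chosen with earlier results of these data known. Other settings were DESeq2, other scalings, filters and thresholds, the 6 libraries of 786O alone, a replicate block, and leaving out each of 12 libraries. Some genes are not reported here.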

Additional observations from a re-analysis of the deposited data

Results flagged for a closer look

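Among BMAL1 and the genes chosen by size of change in 786O, the change with shBMAL1 differed between lines for 26 (edgeR test of the difference, adjusted p below 0.1). It was not called for the others, LOC101927229, LTB, SLC15A3, CMPK2, RNR2, ACTG1 and ATP5B. The difference was called for 56.0% of all genes tested and for 5410 of the 8234 called in 786O. Values below are the log2 change in WT8 minus that in 786O. Large changes in 786O were the ground for the choice, and they also enter the difference. Differences pointing back toward no change can therefore arise in part from the choice, which was not tested. BMAL1 (ARNTL) was reduced more in WT8, by -0.86 (SE 0.195, adjusted p 0.000368). Among the strong rises in 786O the difference was -3.92 for FGB, -4.43 for LAMA5, -10.65 for LBP, -3.08 for the uncharacterised transcript LOC105376878, -3.06 for BAALC, -6.37 for UGT2B7, -2.83 for GPRC5C, -2.34 for UGT2A3 and -2.08 for MMP13. Among the strong falls it was 1.17 for NPC1L1, 2.16 for ADM2, 3.32 for ROBO4, 1.67 for ULBP1 and 0.59 for TIMP2, all closer to no change in WT8, and -3.91 for TIE1 and -1.59 for OAS1, which fell further there. Among the abundant genes it was -0.41 for HSPA8, -0.18 for COX1, -0.52 for COX3, -0.63 for TGFBI, -0.56 for AKR1B1, 0.34 for PKM, 0.25 for EEF1A1, 0.16 for SLC7A5 and -0.43 for PTPRF. Of these abundant genes, HSPA8, SLC7A5, AKR1B1, EEF1A1 and PTPRF moved the same way in both lines and differed only in size. COX3 and TGFBI were called lower in WT8, and COX1 and PKM were not called there. The fitted folds of LBP, TIE1 and ROBO4 depend on libraries of WT8 with few or no counts, and their sizes are not bounds. FGB, BAALC, LOC105376878 and MMP13 were below 0.5 CPM in every WT8 library.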

How the results depend on the processing

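At a required fold of over 1.5, 2408 genes were called in 786O (1125 higher, 1283 lower) and 4931 for the difference between lines. All other settings left these counts within 1.5 times, DESeq2 at 8093 and the 6 libraries of 786O alone at 8308. Replicate numbers were shared between groups but did not pair the libraries (correlations of deviations -0.068, -0.031 and -0.042 in 786O), and a replicate block gave 8054 called. Under the filter of at least 50 counts, no filter and the 6 libraries of 786O alone, the median of complement and acute phase genes was 0.46, 0.34 and 0.46, of endothelial genes -0.37, -0.43 and -0.40, and of clustered histones 2.01, 0.91 and 1.75, with different genes tested. Leaving out 786O libraries in turn gave medians of 0.33 to 0.57, -0.64 to -0.36 and 1.29 to 1.55 for these 3 lists. The same gave -0.70 to -0.66 for the ATF4 list, 0.046 to 0.098 for DNA replication, -0.43 to -0.27 for fatty acid genes, 0.078 to 0.105 for mitochondrial ribosomal proteins, -0.20 to -0.14 for the cilium, -0.111 to -0.0857 for the proteasome and 0.31 to 0.38 for renal lineage genes. Changes of sign were found for medians near 0, and the cause was not tested. That of metallothioneins was -0.0017, but 0.0084 with DESeq2 and 0.15 without a filter. That of epithelial and mesenchymal genes was -0.031, but 0.079 at a mean of at least 50 counts and 0.075 in the 6 libraries of 786O alone. It was 0.12 without 786O shControl replicate 1, and -0.10 to 0.12 over the 6 libraries left out. That of matrix proteases and their inhibitors was -0.0042, but 0.0058 with DESeq2 and 0.014 without 786O shControl replicate 3. The direction of these medians was not settled. BMAL1 stayed between -1.70 and -1.54. Of 299 other genes under the naming rule, 114 were no longer called at the 1.5-fold threshold, 2 with DESeq2 and 2 with the block. Genes at a few counts are limited by depth, since their folds depend on the prior count.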
